A study of Homo sapiens with 27 samples.

Results

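HBL1 and OCI-LY1 are established cell lines of diffuse large B-cell lymphoma (DLBCL), and their transcriptomes were compared here in cells that carried the control shRNA, that is, before any loss of SIRT3. The comparison used the 3 HBL1 and the 3 OCI-LY1 control libraries, 6 of the 27 libraries of the series. The other libraries came from the same lines and from Karpas422 cells, each with a control shRNA or with 1 of 2 shRNAs against SIRT3, in 9 groups of 3. All cells had been infected with a pLKO.1 lentivirus that carried puromycin resistance and YFP, and total RNA was taken on day 8. The control construct in the 6 libraries held a scramble shRNA, so baseline here means infected and control-treated rather than untouched cells.

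DLBCL is divided by cell of origin. Tumors of the germinal center B-cell type (GCB), to which OCI-LY1 belongs, keep the program of cycling germinal center B cells, including the surface enzyme CD10 and the repressor BCL6. Tumors of the activated B-cell type (ABC), to which HBL1 belongs, resemble B cells that have begun to become plasma cells, with IRF4 expression and chronic B-cell receptor, MYD88 and NF-kappaB signaling. A single line stood for each type, so the line and the type cannot be told apart. OCI-LY1 was grown in Iscove's medium and HBL1 in RPMI with L-glutamine and HEPES, so the medium and the line cannot be told apart either. The study describes the knockdown in each line as replicated but does not say whether replicate libraries came from separate infections, and p-values therefore measure the spread between these samples, which may be technical. In bulk RNA, fewer cells of a kind and less RNA per cell cannot be told apart.

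Between 28694398 and 50147928 reads per library fell on genes. Levels are given as CPM, read counts scaled to a common library total and not divided by gene length, so levels of different genes are not compared. The 12162 genes with at least 1 CPM in at least 3 of the 6 libraries were tested, of 27115 genes in all, as differences of log2(CPM + 0.1), HBL1 minus OCI-LY1. Such differences understate the change of genes near 0. Calls required more than a 1.5-fold difference together with a limma Benjamini-Hochberg adjusted p under 0.05. Errors are the standard error (SE) of the log2 difference with 3 libraries per line. Across tested genes the SD of log2 differences between libraries was 0.16 to 0.49 within a line and 2.06 to 2.17 between the lines.

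Some libraries stood apart from the others of their line. OCI-LY1 replicate 2 held 15 genes that separate HBL1 from OCI-LY1 (at least 50 CPM in all 9 HBL1 libraries of the series and a median under 0.05 CPM over the 9 OCI-LY1 libraries) at a median of 0.217% of their HBL1 level, against 0.002% and 0.006% in replicates 1 and 3. The same library had 39 of 40 tested ATF4 target genes at the highest level of the 3 OCI-LY1 libraries, at a median of 3.59 times the mean of the others. Over all 12162 tested genes it was the highest for 4907, at a median of 1.03 times. In HBL1 replicate 3 the interferon-stimulated, NF-kappaB and cell cycle genes were mostly lower than in replicates 1 and 2. HBL1 replicates 1 and 2 were the closest pair, but still differed by more than sampling noise, with a mean chi-square per gene of 6.74 where 1 is noise. What set these libraries apart was not tested, and values without them are given where a result rests on them.

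The identity of the cells was checked first. The B-cell genes PAX5, CD79A, CD79B, MS4A1, CD22 and BLNK were all expressed in both lines. None of the 9 myeloid markers passed the filter, with FCGR3A, S100A8 and S100A9 at 0 in all 6 libraries, and their summed level was 0.777 to 1.32 CPM in HBL1 and 0.0597 to 0.0724 CPM in OCI-LY1. Of 11 T and NK cell markers only CD8A (1.83 to 2.31 CPM in HBL1, 0.0199 to 0.0433 in OCI-LY1) and CD247 (19.8 to 22.4 and 1.54 to 2.9 CPM) passed it, while CD3D, CD3E, CD3G and CD2 did not. The summed T and NK list was 22.4 to 24.7 CPM in HBL1 and 1.99 to 3.18 CPM in OCI-LY1. Of 10 epithelial and fibroblast markers, COL1A2 (12.6 to 15.2 CPM in HBL1, 1 read in OCI-LY1) and EPCAM (4.72 to 7.27 against 0.466 to 0.597 CPM) passed and were higher in HBL1, and the list summed to 18.4 to 23.8 against 0.569 to 0.657 CPM. The part of such genes in the results was not tested.

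The lines differed in 6635 of the 12162 tested genes, or 54.6%. Of these, 3588 were higher in HBL1 (29.5% of tested genes) and 3047 in OCI-LY1 (25.1%). At a fold change above 4 there were 2232 calls (18.4%), of which 1457 were higher in HBL1 and 775 in OCI-LY1. The 3 libraries of each line did not overlap for 6549 of the 6635 calls. That count was taken among the calls only, not over all tested genes, and is not separate support for them. Every count below is to be read against the shares of calls given above, since more than 1 in 2 genes differed. The filter adds to this, because 1111 tested genes passed it through HBL1 libraries alone and 500 through OCI-LY1 libraries alone. Such genes had to differ, also where they are named below with an adjusted p. The gene lists below were chosen with earlier results of these data known. Their counts are therefore a description and not independent support for a difference between the lines.

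**Figure D1:**
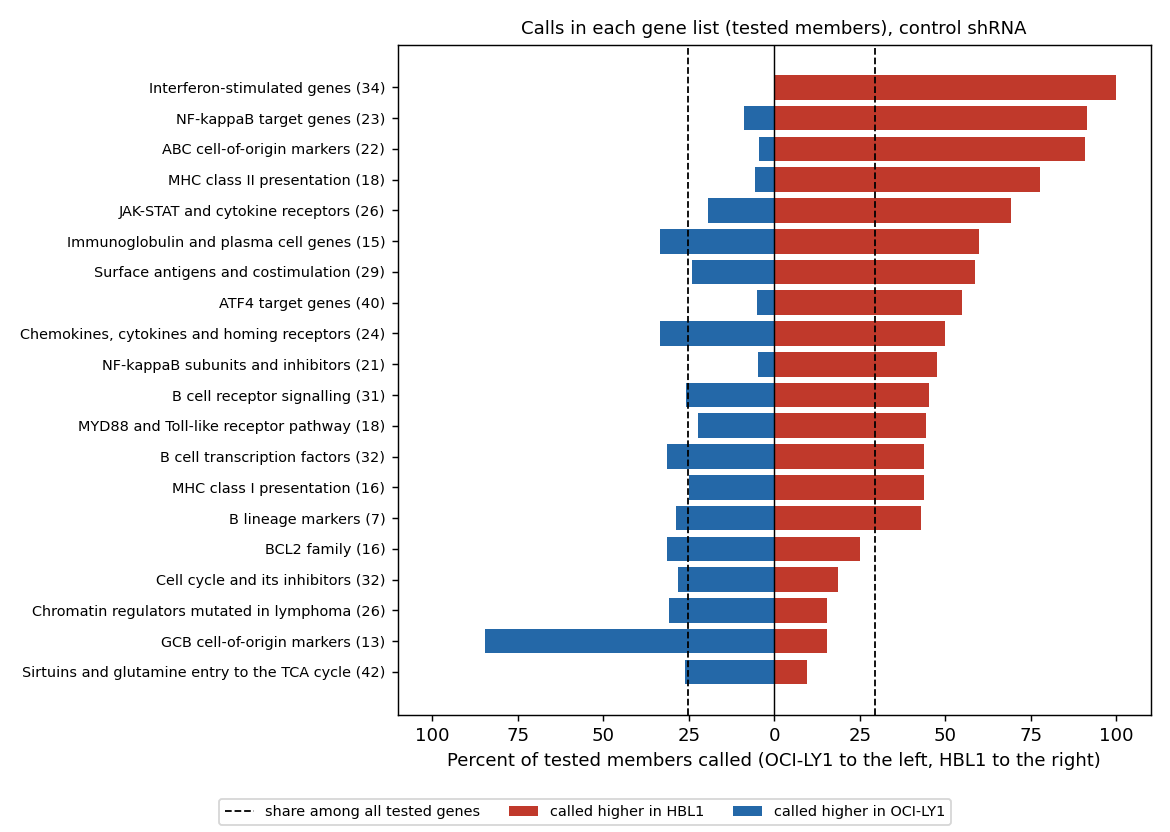
Share of the tested members of each gene list with at least 7 tested members that were called higher in HBL1 (right) or in OCI-LY1 (left), in percent, with the number tested in parentheses; dashed lines mark 29.5% and 25.1%, the shares among all tested genes. Of the lists shown, interferon-stimulated genes, NF-kappaB targets, ABC markers and MHC class II genes extend furthest to the right and GCB markers furthest to the left, while the sirtuin and TCA cycle list has the lowest HBL1 share.

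The cell-of-origin markers followed the labels of the lines with few exceptions. Of 16 GCB markers, 13 were tested, 11 were higher in OCI-LY1 and 2 in HBL1, with a median log2 difference of -3.99. Of 22 ABC markers, all tested, 20 were higher in HBL1, IL16 was higher in OCI-LY1 and BMF was not called, with a median of 3.14. The median over all tested genes was 0.05. By construction of the filter, 4 GCB markers passed the filter through OCI-LY1 alone and 6 ABC markers through HBL1 alone, so their direction was fixed in advance.

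MME, which encodes CD10 (hg19 chr3:154741913-154901493, plus strand), stood at 0.0203, 0.0472 and 0.109 CPM in the HBL1 libraries and at 202, 268 and 227 CPM in the OCI-LY1 libraries. All 3 OCI-LY1 libraries were far above all HBL1 libraries, and the log2 difference was -10.54 (SE 0.23, adjusted p = 4e-08). BCL6, the master repressor of the germinal center program, differed much less. It was 180, 175 and 153 CPM in HBL1 and 259, 240 and 275 CPM in OCI-LY1, a log2 difference of -0.61 (SE 0.13, adjusted p = 0.0035) that fell below the fold threshold when HBL1 replicate 3 (-0.54) or OCI-LY1 replicate 3 (-0.56) was left out. The sphingosine receptor S1PR2, which confines B cells to the germinal center, was 2.51 to 2.74 CPM in HBL1 and 24.3 to 43.1 CPM in OCI-LY1. The transcription factor MYBL1 (0.853 to 0.996 against 20.2 to 25.2 CPM) and the germinal center gene GCSAM (0.538 to 1.01 against 60.1 to 64.2 CPM) were likewise higher in OCI-LY1, as were SSBP2, MAML3, BCL7A, DENND3, STAP1 and ITPKB, with log2 differences from -6.13 to -2.16.

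Some GCB markers did not separate the lines in that direction. NEK6, a mitotic kinase, was 17.1 to 21.6 CPM in HBL1 and 1.1 to 1.43 CPM in OCI-LY1, and LRMP was 381 to 497 against 219 to 320 CPM. LMO2, SERPINA9 and ASB13 did not pass the filter, with no value above 0.755 CPM in any of the 6 libraries. SERPINA9 was 95 to 283 CPM in Karpas422.

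IRF4 (hg19 chr6:391739-411443, plus strand), the transcription factor that drives plasma cell differentiation, was 405, 388 and 343 CPM in HBL1 and 0.331, 1.36 and 0.916 CPM in OCI-LY1. The log2 difference was 8.78 (SE 0.39, adjusted p = 3.5e-07). PRDM1, which encodes the plasma cell repressor BLIMP1, was 7.09, 6.65 and 3.43 CPM in HBL1 against 0, 0.0519 and 0.00995 CPM in OCI-LY1. CCND2, which encodes cyclin D2, was 714, 664 and 816 CPM in HBL1 and 0.0103, 1.35 and 0.468 CPM in OCI-LY1. BATF, an AP-1 family factor, was 90.5, 74.8 and 38.3 CPM against 0.507 to 0.909 CPM. The kinases PIM1 (1209 to 1240 against 106 to 195 CPM) and PIM2 (573 to 592 against 46.5 to 99.3 CPM) and the FOXP1 repressor (166 to 173 against 52.7 to 69.7 CPM) were expressed in both lines and differed by log2 differences of 3.20, 3.02 and 1.55. TNFRSF13B (TACI), CREB3L2, CCDC50, SH3BP5, ENTPD1, ETV6, CYB5R2, BLNK, RAB29, FUT8, PTPN1 and LIMD1 were also higher in HBL1. IL16, 13.8 to 36.9 CPM in HBL1 and 75.3 to 104 CPM in OCI-LY1, was the exception, and BMF differed by 0.53 (SE 0.19, adjusted p = 0.04), which is below the fold threshold.

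**Figure D2:**
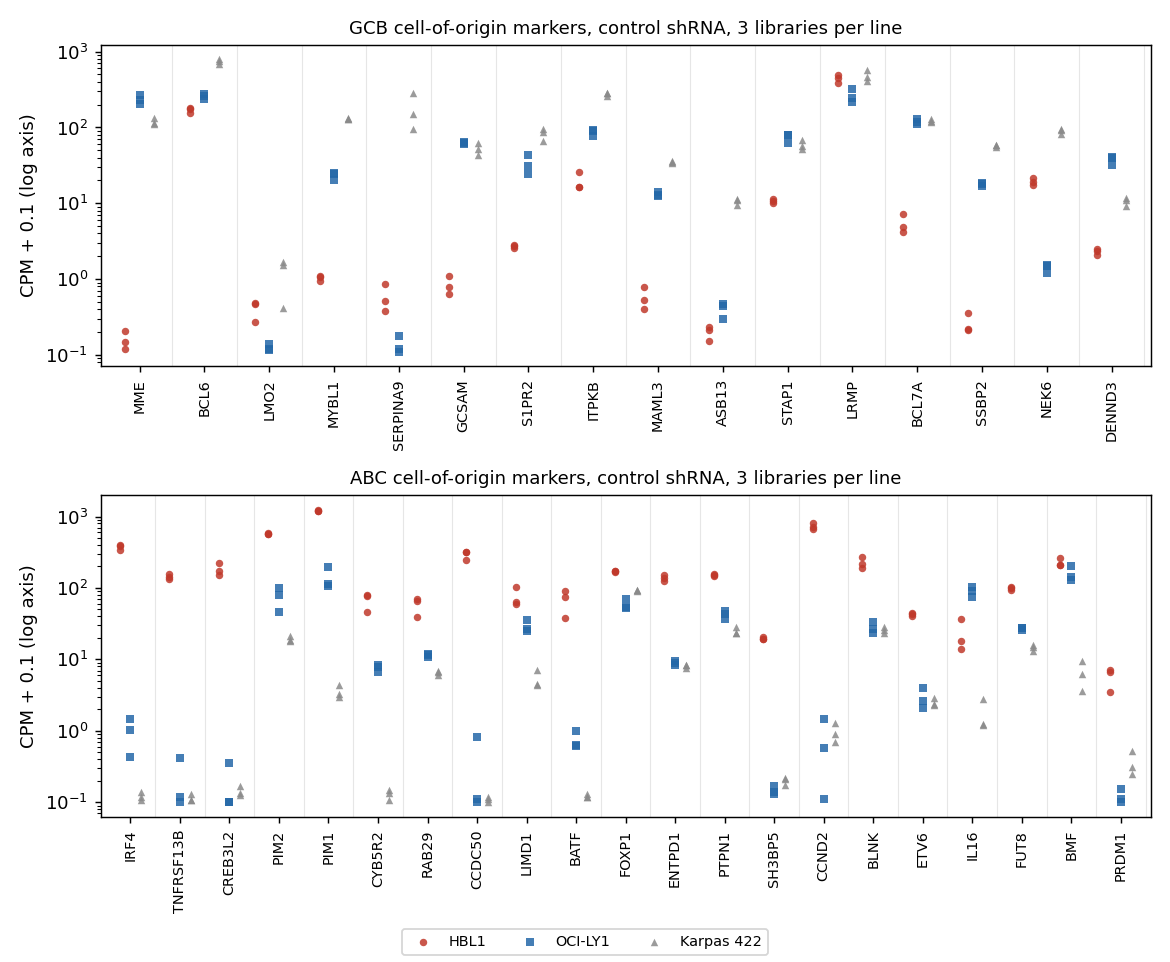
CPM + 0.1 on a log axis for the 16 GCB markers (top) and 21 of the 22 ABC markers (bottom) in each of the 3 control libraries of HBL1 (circles), OCI-LY1 (squares) and Karpas422 (triangles), 1 point per library. MME is near the floor in HBL1 and at 202 to 268 CPM in OCI-LY1, IRF4 shows the opposite order, and LMO2, SERPINA9 and ASB13 are low in both HBL1 and OCI-LY1.

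The largest differences were of genes that were silent in 1 line. The 10 largest were taken among called genes without overlap. Chromosome Y, XIST, antisense symbols and symbols starting with LOC, LINC, MIR, SNOR or FLJ were left out. Those in favor of HBL1 were CD44, CCND2, CDH2, CCDC50, ALDH1L2, LILRA4, CREB3L2, TRPM4, TNFRSF13B and SLC7A2, with log2 differences from 9.70 to 11.13. CD44, the hyaluronan receptor (hg19 chr11:35160429-35253949, plus strand), was 628, 642 and 686 CPM in HBL1 and 0.0207, 1.26 and 0.0498 CPM in OCI-LY1. Its highest OCI-LY1 value was in replicate 2, the library with the HBL1-specific genes. Without that library the log2 difference of CD44 was 12.24, and the 10 genes spanned 10.23 to 12.24. Their direction was the same with and without it, and their size was not. CDH2, which encodes N-cadherin, was 257 to 312 CPM in HBL1 and at most 0.467 CPM in OCI-LY1.

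Among the 10 largest in favor of OCI-LY1 were BMP7, H1F0, CD9, MME, CBS, CYTIP, TCL1B, TCL1A and PRDX2. CD9, a tetraspanin, was 191, 154 and 133 CPM in OCI-LY1 with no read in the 3 HBL1 libraries, which puts it at least 13432-fold higher in OCI-LY1 when the floor is set at 3 reads over the HBL1 libraries. TCL1A, an AKT co-activator of germinal center and naive B cells, was 93.7, 71.6 and 68.5 CPM in OCI-LY1 with no HBL1 read, at least 6542-fold higher. CYTIP (79.9, 113 and 101 CPM) also had no HBL1 read and was at least 8354-fold higher. BMP7, a secreted BMP ligand, was 228, 444 and 238 CPM in OCI-LY1 and gave 1 read in all of HBL1, a ratio of 78804 (95% exact interval 14143 to 3112635, counting error only). PRDX2, a peroxide-reducing enzyme, was 79.5 to 112 CPM in OCI-LY1 and 0.0109 to 0.0472 CPM in HBL1.

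Among 32 B-cell transcription factors, 14 were higher in HBL1, 10 were higher in OCI-LY1 and 8 were not called. The median was 0.13, or 0.065 with quantile normalization. Calls made up 75% of the list, against 54.6% of all genes. Those not called were EBF1, IKZF1, IKZF3, IRF8, FOXO1, BACH2, MYC and MEF2B. PAX5, which maintains B-cell identity (556 to 608 against 205 to 208 CPM), was higher in HBL1. IRF4, BATF, AHR, PRDM1, BATF3 and HHEX showed the largest differences of the list. AHR, the aryl hydrocarbon receptor, had no read in HBL1 and was 6.86, 6.41 and 6.72 CPM in OCI-LY1, at least 562-fold higher there. SPI1, which encodes PU.1, was 6.05 to 6.79 CPM in HBL1 and 44.5 to 52.9 CPM in OCI-LY1, and ZEB2 was 5.83 to 7.92 against 30.4 to 37.3 CPM. SPIB, POU2F2, TCF4 and TCF3 are given outside the naming rule, chosen after their values were seen. SPIB, the relative of SPI1, had the opposite order to it, 358 to 418 against 90.4 to 126 CPM. POU2F2 (OCT2) was 360 to 451 against 36.5 to 52.9 CPM and TCF4, which encodes an E protein, was 325 to 339 against 33.2 to 35 CPM. TCF3, which encodes another E protein of B cells, was lower in HBL1, at 113 to 158 against 458 to 496 CPM.

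B-cell receptor genes were split between the lines. Of 32 members 31 were tested, 14 were higher in HBL1, 8 in OCI-LY1 and 9 were not called, with a median of 0.47. Calls made up 71% of the members tested, against 54.6% of all genes. The receptor chain CD79B was 309, 331 and 465 CPM in HBL1 and 559 to 588 CPM in OCI-LY1, a log2 difference of -0.67 (SE 0.19, adjusted p = 0.015) that lost its call without HBL1 replicate 1 (adjusted p = 0.08) or replicate 2 (adjusted p = 0.078). The inhibitory receptor CD22 was 38.4, 54 and 63.9 CPM in HBL1 and 419, 495 and 620 CPM in OCI-LY1, and the adaptor DOK3 and the tetraspanin CD81 were also lower in HBL1. Several other members had the opposite order. PRKCB, a protein kinase C that relays the receptor signal, was 248, 242 and 294 CPM in HBL1 and 8.13, 8.62 and 14.3 CPM in OCI-LY1, a log2 difference of 4.69 (SE 0.21, adjusted p = 4e-07). VAV2, an exchange factor of the receptor, was 124 to 130 against 0.879 to 1.84 CPM, while its relative VAV1, named after its values were seen, was 36.9 to 43.7 CPM in HBL1 and 74 to 89.6 CPM in OCI-LY1. The adaptor BLNK, the complement receptor CR2 and the kinase FYN were higher in HBL1. FYN was uneven in OCI-LY1, at 2.28, 11.1 and 2.95 CPM against 28.3 to 32.9 CPM in HBL1.

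In the MYD88 and Toll-like receptor list, 18 of 19 members were tested. Of these, 8 were higher in HBL1, 4 were higher in OCI-LY1 and 6 were not called. The median was 0.52, and the share of calls was 66.7% against 54.6% of all genes. The receptors TLR7 (4.95 to 6.71 against 0.026 to 0.114 CPM) and TLR4 (23.4 to 26.2 against 3.19 to 4.21 CPM) and the interferon regulator IRF7 were higher in HBL1. CD180, a receptor that restrains TLR4, and its partner LY86 were higher in OCI-LY1, at 41.3 to 76.8 against 2.91 to 3.06 CPM and at 16.6 to 20.4 against 5.22 to 8.93 CPM. The IRAK family was divided, since IRAK2 was 0.299 to 0.35 CPM in HBL1 and 33 to 42.8 CPM in OCI-LY1, while IRAK3, an inhibitor of the pathway, was 7.83 to 11.1 against 0.0796 to 0.208 CPM.

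NF-kappaB factors are held in the cytoplasm by IkappaB proteins, many of which are themselves NF-kappaB targets. Of 21 subunits, inhibitors and upstream regulators, 10 were higher in HBL1, BIRC3 was higher in OCI-LY1 and 10 were not called, a share of calls of 52.4% against the 54.6% of all genes. The median log2 difference was 0.64. With 1 library left out it ranged from 0.482 (without HBL1 replicate 2) to 0.938 (without HBL1 replicate 3). Without HBL1 replicate 3, or without OCI-LY1 replicate 2, 12 members were called higher in HBL1. Leaving out OCI-LY1 replicate 3 gave 2 members called higher in OCI-LY1. The subunits NFKB1, REL, RELA and RELB were not called, and NFKB2 was 130, 114 and 61.7 CPM in HBL1 against 17.5 to 19.4 CPM in OCI-LY1. Among the inhibitors, NFKBIE was 277, 259 and 205 CPM in HBL1 and 10, 9.54 and 9.62 CPM in OCI-LY1, a log2 difference of 4.64 (SE 0.13, adjusted p = 5e-08). NFKBIZ (77.9 to 111 against 2.92 to 4.94 CPM), NFKBID (74.9 to 110 against 6.88 to 7.21 CPM) and TNFAIP3, the deubiquitinase A20 that shuts the pathway down (90.5 to 136 against 9.74 to 15.4 CPM), were higher in HBL1. BIRC3, a ubiquitin ligase of the TNF receptor complex, was 54.6, 54.1 and 34.5 CPM in HBL1 and 206, 305 and 208 CPM in OCI-LY1.

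Of 27 NF-kappaB target genes, 23 were tested, 21 were higher in HBL1, 2 were higher in OCI-LY1 and none were left uncalled, with a median of 3.21, or 1.87 with a pseudocount of 1. Of these 23, 6 passed the filter through HBL1 alone and 1 through OCI-LY1 alone. CCL22, a chemokine that attracts regulatory T cells, was 105, 88.7 and 30.7 CPM in HBL1 and 0, 0.138 and 0.00995 CPM in OCI-LY1. EBI3, a subunit of IL-27 and IL-35, was 63.9, 55.6 and 27.6 CPM against 0, 0.19 and 0 CPM. The homing receptor CCR7 was 87.1 to 133 against 1.02 to 2.31 CPM, and TNFAIP2 was 25.3 to 27.8 CPM against at most 0.121 CPM. The targets with the opposite order were LTB, which encodes lymphotoxin beta, at 1.64 to 2.6 CPM in HBL1 and 30.7 to 50.4 CPM in OCI-LY1, and IL2RA, the IL-2 receptor alpha chain, at 0.0657 to 0.173 against 14.7 to 24.1 CPM. HBL1 replicate 3 was the lowest HBL1 library for 19 of the 23 tested targets and 19 of the 21 regulators, and for 6019 of all 12162 tested genes. Without it the counts of the targets were again 21 and 2, and the median was 3.32.

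Promoters with a kappaB consensus match are shown for a pair of NF-kappaB genes higher in each line. Each run holds the 250 bases before the RefSeq start site in GRCh38.p14, read 5' to 3' on the strand of the gene. Matches to the kappaB consensus on either strand are in capitals, and the genes were chosen after their values were seen. LTB has 2 promoter entries, and only the first listed was searched. CCL22 (chr16:57358533-57358782, plus strand) and TNFAIP3 (chr6:137867009-137867258, plus strand) were higher in HBL1, and LTB (chr6:31582426-31582675, minus strand) and BIRC3 (chr11:102317234-102317483, plus strand) were higher in OCI-LY1.
CCL22: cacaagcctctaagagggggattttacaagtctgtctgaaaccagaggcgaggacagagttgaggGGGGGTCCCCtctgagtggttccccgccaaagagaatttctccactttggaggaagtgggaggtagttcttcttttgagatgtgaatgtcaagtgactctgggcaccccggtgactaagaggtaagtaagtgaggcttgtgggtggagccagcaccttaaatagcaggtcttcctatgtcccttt
TNFAIP3: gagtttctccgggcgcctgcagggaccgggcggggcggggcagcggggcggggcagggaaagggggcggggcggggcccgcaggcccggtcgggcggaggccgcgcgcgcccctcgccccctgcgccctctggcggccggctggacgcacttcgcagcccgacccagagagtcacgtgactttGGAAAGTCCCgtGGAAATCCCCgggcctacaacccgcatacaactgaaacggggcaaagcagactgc
LTB: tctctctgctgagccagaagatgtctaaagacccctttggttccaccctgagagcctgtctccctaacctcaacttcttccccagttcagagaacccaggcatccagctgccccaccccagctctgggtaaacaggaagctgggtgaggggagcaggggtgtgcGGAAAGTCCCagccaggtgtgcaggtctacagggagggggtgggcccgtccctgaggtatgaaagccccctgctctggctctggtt
BIRC3: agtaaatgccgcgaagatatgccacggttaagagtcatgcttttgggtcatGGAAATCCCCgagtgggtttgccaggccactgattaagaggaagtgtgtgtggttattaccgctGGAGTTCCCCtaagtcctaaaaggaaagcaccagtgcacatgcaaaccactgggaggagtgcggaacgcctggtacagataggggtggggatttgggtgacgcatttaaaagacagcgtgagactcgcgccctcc

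CCL22 and LTB hold 1 match each, and TNFAIP3 and BIRC3 hold 2. Of the 20 tested target genes with a promoter in the RefSeq table, 4 held a match (CCL22, CFLAR, LTB and IL2RA), or 20%, against 557 of 9753 tested genes (5.71%). Those 4 include both targets that were higher in OCI-LY1. A match is a description of the letters and not a site of binding.

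Cytokine signaling through JAK kinases and STAT factors carries autocrine IL-6 and IL-10 signals in ABC lymphoma. Of 32 JAK-STAT and cytokine receptor genes, 26 were tested, 18 were higher in HBL1, 5 in OCI-LY1 and 3 were not called, with a median of 1.75. Of the 26 tested, 3 passed the filter through HBL1 alone, IL6R and IL2RB among them, and 2 through OCI-LY1 alone. The direction of such members was fixed in advance. Receptors led the list. IL6R was 104, 96.5 and 72.1 CPM in HBL1 and 0.0103, 0.182 and 0.00995 CPM in OCI-LY1, a log2 difference of 9.22 (SE 0.37, adjusted p = 2.1e-07). IL10RA was 97.5 to 136 against 3.02 to 6.05 CPM, IL21R was 102 to 126 against 0.876 to 3.78 CPM and IL2RB was 10.6 to 20.5 CPM against at most 0.0346 CPM. The ligands were low, with IL10 at 1.63 to 2.37 CPM in HBL1 and at most 0.0796 CPM in OCI-LY1, and IL6 below the filter. Among the factors, STAT5A was 131, 114 and 47.4 CPM in HBL1 and 0.424, 1.04 and 1.55 CPM in OCI-LY1. STAT3 was 206, 183 and 113 CPM against 20.1 to 21.9 CPM, and STAT6, which carries IL-4 signals, was not called. IL2RA, the feedback inhibitor SOCS1 (0.438 to 0.883 against 2.29 to 4.01 CPM) and IFNGR2 (14.9 to 15.8 against 52.7 to 65.1 CPM) had the opposite order. STAT3, STAT6, IL6 and IL10 are named outside the rule, after their values were seen.

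Interferon-stimulated genes are switched on by STAT and IRF factors. Of 38 members, 34 were tested and these 34 were called higher in HBL1, with a median of 3.43, and 11 of them passed the filter through HBL1 alone. CMPK2, HERC5, IFITM3 and RSAD2 did not pass it. For BST2 and SAMD9, named after their values were seen, the libraries of the lines overlapped, and 28 to 34 of the 34 were called under the alternatives, none of them higher in OCI-LY1. IFI44L was 240, 245 and 174 CPM in HBL1 and 0.114, 0.502 and 0.109 CPM in OCI-LY1, a log2 difference of 9.50 (SE 0.40, adjusted p = 2.6e-07). IFIT1, which binds viral RNA, was 60.4, 50.5 and 15.9 CPM against 0.109 to 0.19 CPM, and IFIT3 was 93.5, 83.2 and 21.9 CPM against 0.0517 to 0.251 CPM. IFI44, the helicase-like DDX60 and the oligoadenylate synthetase relative OASL completed the 6 largest, with log2 differences from 6.50 to 7.64. HBL1 replicate 3 was the lowest HBL1 library for 32 of the 34 genes, at a median of 0.622 times the mean of replicates 1 and 2. Without that library all 34 were again called higher in HBL1, with a median of 3.75.

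Promoters of 3 members are shown with matches to the core letters of the interferon-stimulated response element, GAAANNGAA, on either strand in capitals. The windows are again the 250 bases before the RefSeq start in GRCh38.p14, and the motif and the genes were chosen after the values were seen. IFIT3 has 2 promoter entries, and only the first listed was searched. ISG15 (chr1:1013247-1013496, plus strand) was 125 to 173 CPM in HBL1 and 10.2 to 17.4 CPM in OCI-LY1, IFI6 (chr1:27672193-27672442, minus strand) was 43.9 to 79.3 against 3.29 to 4.06 CPM, and IFIT3 lies at chr10:89327747-89327996 on the plus strand.
ISG15: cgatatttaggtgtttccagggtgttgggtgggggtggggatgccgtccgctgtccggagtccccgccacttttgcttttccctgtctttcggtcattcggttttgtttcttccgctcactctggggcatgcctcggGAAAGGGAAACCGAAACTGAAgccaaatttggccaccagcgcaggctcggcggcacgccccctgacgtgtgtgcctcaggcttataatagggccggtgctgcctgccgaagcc
IFI6: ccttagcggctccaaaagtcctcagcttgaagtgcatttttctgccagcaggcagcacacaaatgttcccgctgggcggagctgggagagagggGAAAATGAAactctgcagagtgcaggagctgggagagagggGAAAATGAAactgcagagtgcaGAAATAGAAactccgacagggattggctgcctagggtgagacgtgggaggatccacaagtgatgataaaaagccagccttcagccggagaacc
IFIT3: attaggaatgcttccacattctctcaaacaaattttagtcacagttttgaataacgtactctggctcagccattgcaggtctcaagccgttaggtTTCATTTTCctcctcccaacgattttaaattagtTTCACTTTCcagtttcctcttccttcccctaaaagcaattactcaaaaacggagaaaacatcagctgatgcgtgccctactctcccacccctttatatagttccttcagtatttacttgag

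ISG15 holds 3 overlapping matches that start 113, 107 and 101 bases before the start site, IFI6 holds 3 separate matches and IFIT3 holds 2. A promoter was found for 26 of the 34 tested genes, 76.5%, which is under the 80% that a comparison of shares needs, so the comparison with all promoters is void for this list. Of those 26 promoters, 16 held a match. The octamer ATGCAAAT was held by 122 of 9753 promoters of tested genes (1.25%), the STAT motif TTCNNNGAA by 5.62% and the AP-1 motif TGANTCA by 3.63%. Only 77.4% of the genes higher in HBL1 and 78.9% of those higher in OCI-LY1 had a promoter in the table, so no shares are compared between the directions.

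**Figure D3:**
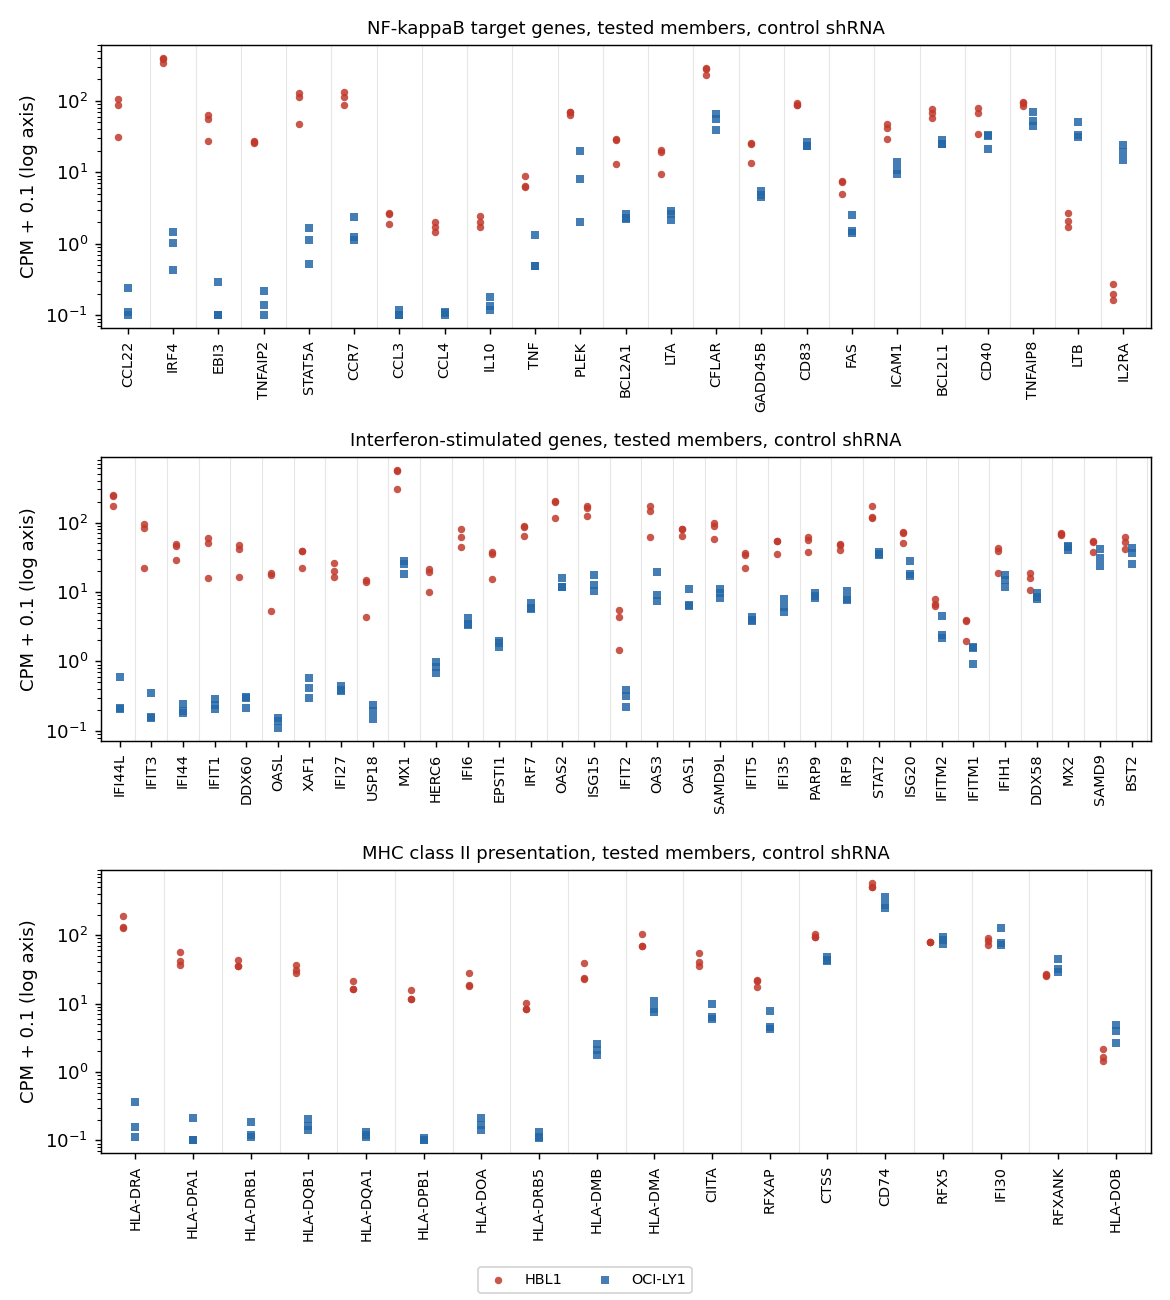
CPM + 0.1 on a log axis for the tested NF-kappaB targets, 33 of the 34 tested interferon-stimulated genes and the tested MHC class II genes in the 3 HBL1 (circles) and 3 OCI-LY1 (squares) control libraries, ordered by the log2 difference. The squares lie at the floor for the HLA-DR, HLA-DP and HLA-DQ genes while CD74 and RFX5 are high in both lines, and only LTB and IL2RA among the targets have squares above circles.

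MHC class II molecules present peptides to CD4+ T cells, and their genes are switched on together by CIITA and the RFX complex. The classical class II genes were at or near 0 in OCI-LY1. Of 20 class II presentation genes, 18 were tested, 14 were higher in HBL1, HLA-DOB was higher in OCI-LY1 and 3 were not called, with a median of 3.43, and 8 passed the filter through HBL1 alone. HLA-DRA (hg19 chr6:32407655-32412823, plus strand) was 129, 132 and 192 CPM in HBL1 and 0.0103, 0.268 and 0.0597 CPM in OCI-LY1. The log2 difference was 9.64 (SE 0.41, adjusted p = 2.9e-07) and 10.13 without OCI-LY1 replicate 2. HLA-DPA1 was 36.8 to 57.2 CPM in HBL1 and at 0 in 2 of the 3 OCI-LY1 libraries, and HLA-DPB1 gave 1 read in all of OCI-LY1, a ratio of 4085 (95% exact interval 733 to 161402). HLA-DRB1, HLA-DQB1 and HLA-DQA1 had no OCI-LY1 value above 0.104 CPM and 16.1 to 43.5 CPM in HBL1. HLA genes are near-identical to each other and polymorphic, so reads may have been lost or divided among them.

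The regulators and the rest of the pathway were not silent in OCI-LY1. CIITA was 35.1, 40.3 and 55.1 CPM in HBL1 and 6.2, 5.8 and 9.76 CPM in OCI-LY1, a log2 difference of 2.58 (SE 0.24, adjusted p = 3.1e-05). RFX5 and RFXANK were not called, and RFXAP was 17.2 to 21.8 against 4.11 to 7.61 CPM. The invariant chain CD74 was 500 to 589 CPM in HBL1 and 250 to 362 CPM in OCI-LY1. HLA-DOB, part of a modulator of peptide loading, was 1.37 to 2.07 against 2.56 to 4.72 CPM. CIITA, CD74 and the RFX genes are named after their values were seen.

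MHC class I genes were expressed in both lines. Of 17 members 16 were tested, 7 were higher in HBL1, 4 in OCI-LY1 and 5 were not called. These calls were 68.8% of the members tested, against 54.6% of all genes. The median was 0.33, and it was 0.184 and 0.525 without HBL1 replicate 1 and 3 and 0.50 and 0.214 without OCI-LY1 replicate 1 and 2. NLRC5, the class I counterpart of CIITA, was 101, 88.2 and 72.3 CPM in HBL1 and 1.46, 2.1 and 1.53 CPM in OCI-LY1. HLA-B was 287 to 358 against 17.9 to 26.6 CPM, HLA-E was 114 to 133 against 9.37 to 20 CPM and the light chain B2M was 573 to 596 against 180 to 202 CPM. The peptide transporter TAP2, the trimming enzyme ERAP2 and the chaperone PDIA3 were higher in OCI-LY1, with log2 differences from -1.58 to -1.10.

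Of 33 surface antigens and costimulatory molecules 29 were tested, 17 were higher in HBL1 and 7 in OCI-LY1, with a median of 1.00. Of the 29, 6 passed the filter through HBL1 alone, among them SLAMF7, CD274 and FCER2, so their direction was fixed in advance. CD44 led the list. SLAMF7, a receptor of plasma cells and NK cells, was 160, 160 and 97 CPM in HBL1 and 0.0207 to 0.286 CPM in OCI-LY1. CD274, which encodes PD-L1, was 21, 18.9 and 21.1 CPM against 0.0621, 0.147 and 0.0498 CPM, a log2 difference of 6.81 (SE 0.22, adjusted p = 8.1e-08). FCER2 (CD23) was 6.99 to 10.9 CPM in HBL1 and gave 2 reads in OCI-LY1, a ratio of 1375 (380 to 11358). CD27, a memory B-cell receptor, was 1.46 to 2.09 CPM in HBL1 and 44.3 to 54.6 CPM in OCI-LY1, and SLAMF6 was 3.07 to 5.92 against 60.6 to 83.5 CPM.

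Chemokine and homing genes went both ways, with 24 of 33 members tested, 12 higher in HBL1, 8 in OCI-LY1 and a median of 0.99. The median was 0.727 with quantile normalization, 0.796 without OCI-LY1 replicate 2 and 1.53 without OCI-LY1 replicate 3. Of the 24, 6 passed the filter through HBL1 alone, S1PR1 among them, and 3 through OCI-LY1 alone. Those 3 are ITGA4, GPR183 and S1PR4. The direction of all such members was fixed in advance. ITGA4, the alpha chain of the VLA-4 integrin, was 57.8, 44 and 59.9 CPM in OCI-LY1 and gave 1 read in HBL1, a ratio of 13529 (2428 to 534394). GPR183, which guides B cells to the outer follicle, was 92.3 to 127 CPM in OCI-LY1 and 0.676 to 0.733 CPM in HBL1. The sphingosine receptors were exchanged, since S1PR1 was 4.75 to 6.06 CPM in HBL1 and at most 0.0207 CPM in OCI-LY1, whereas S1PR4 was at most 0.0438 CPM in HBL1 and 3.62 to 5.37 CPM in OCI-LY1, in the same direction as S1PR2.

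Plasma cell and immunoglobulin genes did not all follow IRF4. Of 21 members 15 were tested, 9 were higher in HBL1 and 5 in OCI-LY1, with a median of 1.29. XBP1, the factor that expands the secretory pathway, was 115, 125 and 172 CPM in HBL1 and 19.4, 29.3 and 12.6 CPM in OCI-LY1. The BCMA gene TNFRSF17 was 45.3 to 59.8 against 0.866 to 2.14 CPM. JCHAIN, the joining chain of secreted antibodies, was 26.1, 32.4 and 54.3 CPM in HBL1 and 851, 799 and 776 CPM in OCI-LY1, a log2 difference of -4.49 (SE 0.25, adjusted p = 1.2e-06). VPREB3, a chaperone of the pre-B-cell receptor, and DERL3, of the secretory pathway, were also higher in OCI-LY1.

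Survival and cell cycle genes were split between the lines, with shares of calls near or below that of all genes. Of 19 BCL2 family genes 16 were tested, 4 were higher in HBL1 and 5 in OCI-LY1, a share of calls of 56.2% against 54.6% of all genes. The median of 0.20 moved to 0.088, 0.097 and 0.325 without HBL1 replicate 1, 2 and 3, to 0.125 and 0.072 without OCI-LY1 replicate 2 and 3, and to 0.062 with the edgeR quasi-likelihood test. The protective members BCL2A1 (13.1 to 28.8 against 2.13 to 2.51 CPM) and BCL2L1 (58.2 to 78 against 24.5 to 28.6 CPM) were higher in HBL1, while BCL2 itself, named after its values were seen, was 269 to 292 CPM in HBL1 and 443 to 816 CPM in OCI-LY1. The death-promoting genes HRK (0.436 to 1.13 against 24.1 to 42 CPM) and BCL2L11 (35.2 to 40.2 against 136 to 311 CPM), which encodes BIM, were higher in OCI-LY1, but PMAIP1, which encodes NOXA, was higher in HBL1.

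Of 34 cell cycle genes 32 were tested, 6 were higher in HBL1, 9 in OCI-LY1 and 17 were not called, a share of calls of 46.9%. The median was -0.31. It was -0.159 without HBL1 replicate 3, -0.182 without OCI-LY1 replicate 1 and -0.414 without OCI-LY1 replicate 3. The proliferation genes MKI67, TOP2A, CCNB1 and CDK1 were not called, and MKI67, at 384, 375 and 205 CPM in HBL1 and 395, 253 and 235 CPM in OCI-LY1, overlapped between the lines. HBL1 replicate 3 was the lowest HBL1 library for 24 of the 32 genes, and without it 8 were higher in HBL1 and 6 in OCI-LY1. The retinoblastoma gene RB1 (hg19 chr13:48877880-49173572, plus strand) was 280, 290 and 232 CPM in HBL1 and 6.59, 7.21 and 5.93 CPM in OCI-LY1, a log2 difference of 5.32 (SE 0.13, adjusted p = 4e-08). CDKN2A, which encodes the p16 inhibitor that acts through RB1, showed the opposite order, 0.386 to 0.493 CPM in HBL1 and 46.5 to 57 CPM in OCI-LY1. CDKN1A, the p21 inhibitor, was 252 to 305 against 17.7 to 47.5 CPM, and cyclin E2 (CCNE2) was 4.22 to 4.51 against 27.8 to 44.9 CPM.

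Of 27 chromatin regulators 26 were tested, 4 were higher in HBL1 and 8 in OCI-LY1, a share of calls of 46.2%. HDAC9 gave 1 read in HBL1 and was 33.3, 10.6 and 12 CPM in OCI-LY1. The SWI/SNF ATPases differed in opposite directions, with SMARCA2 at 176 to 222 CPM in HBL1 and 63.2 to 96.6 CPM in OCI-LY1 and SMARCA4 at 78.8 to 101 against 209 to 261 CPM. HDAC1 and DNMT1 were higher in OCI-LY1, and the linker histone HIST1H1C and the demethylating enzyme TET2 were higher in HBL1.

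SIRT3, the mitochondrial deacetylase that the knockdown libraries target (hg19 chr11:215030-236931, minus strand), was 13.5, 14.2 and 16.4 CPM in HBL1 and 10.7, 13.8 and 9.98 CPM in OCI-LY1. The libraries overlapped, and the log2 difference of 0.36 (SE 0.16, adjusted p = 0.082) was not called. GLUD1, the glutamate dehydrogenase that feeds glutamate into the TCA cycle, was 48.6 to 57.5 against 50.3 to 58.7 CPM (log2 difference -0.09, SE 0.12, adjusted p = 0.54), and reads may be divided between it and its near-copy GLUD2, which was not called either. Of 44 sirtuin, glutamine and TCA cycle genes 42 were tested, 4 were higher in HBL1 and 11 in OCI-LY1, with a median of -0.10, or -0.163 without OCI-LY1 replicate 3 and -0.193 with quantile normalization. This share of calls, 35.7%, was below the 54.6% of all genes.

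Among the 11 members that were higher in OCI-LY1, OGDH, the first subunit of the 2-oxoglutarate dehydrogenase complex, was 30, 27.1 and 27 CPM in HBL1 and 174, 146 and 157 CPM in OCI-LY1, a log2 difference of -2.50 (SE 0.11, adjusted p = 3.8e-07). The NADP-dependent IDH2 was 14.8 to 18.4 against 50.3 to 77.9 CPM, SDHA was 26.2 to 32.4 against 58.9 to 75.5 CPM and the mitochondrial desuccinylase SIRT5 was 3.31 to 6.17 against 14.8 to 21.6 CPM. PC, the pyruvate carboxylase that refills the cycle from pyruvate instead of glutamine, went the other way. It was 10.8, 10.4 and 10.3 CPM in HBL1 and 0.155, 0.182 and 0.139 CPM in OCI-LY1, a log2 difference of 5.36 (SE 0.16, adjusted p = 5.8e-08). PC is among the 2 members of the list that passed the filter through HBL1 alone, so its direction was fixed in advance. GOT1 (66.7 to 75 against 13.5 to 32.9 CPM) and FH were also higher in HBL1.

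ATF4 is the transcription factor of the amino acid response and switches on genes of serine and asparagine synthesis, amino acid import and tRNA charging. Its own transcript was 280, 289 and 342 CPM in HBL1 and 152, 326 and 129 CPM in OCI-LY1 and was not called (log2 difference 0.71, SE 0.32, adjusted p = 0.086). Of 42 target genes, 40 were tested, 22 were higher in HBL1, 2 in OCI-LY1 and 16 were not called, with a median of 1.09. The share of calls was 60%, against 54.6% of all genes. Without OCI-LY1 replicate 2 35 were higher in HBL1 and 2 in OCI-LY1, the median was 1.72, and ATF4 itself was called at 1.11 (adjusted p = 0.00084). Leaving out OCI-LY1 replicate 1 or 3 instead left 13 higher in HBL1, with medians of 0.892 and 0.789. Leaving out HBL1 replicate 3 left 15. The edgeR quasi-likelihood test on recovered reads gave 11, with a median of 0.80. A fit with a replicate block gave 26, and so did a fit on all 9 control libraries.

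Among the OCI-LY1 libraries 17 target genes varied by more than 5-fold, and replicate 2 was the highest for each. ALDH1L2, among them, was near 0 in OCI-LY1 and is counted through replicate 2, the library that held HBL1-specific genes. PSAT1, of serine synthesis, was 42.7, 250 and 33.7 CPM in OCI-LY1 and 368, 370 and 384 CPM in HBL1, a log2 difference of 2.39 (SE 0.66, adjusted p = 0.013) that lost its call without OCI-LY1 replicate 1 (2.03, adjusted p = 0.052) and under the edgeR quasi-likelihood test (1.75, adjusted p = 0.057). CHAC1, which degrades glutathione, was 1.99, 67.2 and 2.23 CPM in OCI-LY1 and 30.7, 29.8 and 23.3 CPM in HBL1. TRIB3, a feedback inhibitor of ATF4, was 21.8, 141 and 23.8 CPM against 144 to 238 CPM, and SESN2 was 11.9, 119 and 10.1 CPM against 190 to 214 CPM. DDIT3 (CHOP), ATF3, ATF5, CEBPB, WARS, SLC7A5, SLC7A11, SLC6A9, CTH, PYCR1, INHBE, VLDLR and ALDH1L2 were the others. For 13 of the 17 genes replicate 2 was still below the lowest HBL1 library, and 13 were called with all 6 libraries against 17 without replicate 2.

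A few targets were near 0 in 1 line. ALDH1L2, the mitochondrial folate enzyme, was 221, 248 and 330 CPM in HBL1 and 0.0103, 0.623 and 0.0299 CPM in OCI-LY1, and the secreted glycoprotein STC2 was 25.1 to 29.1 CPM against at most 0.0692 CPM. CBS, the first enzyme of transsulfuration, had the opposite order, 135, 257 and 84.3 CPM in OCI-LY1 and 3 reads in HBL1, a ratio of 13849 (4739 to 67158). DDIT4, an inhibitor of mTORC1, was 30.1 to 47.7 CPM in HBL1 and 119 to 275 CPM in OCI-LY1.

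**Figure D4:**
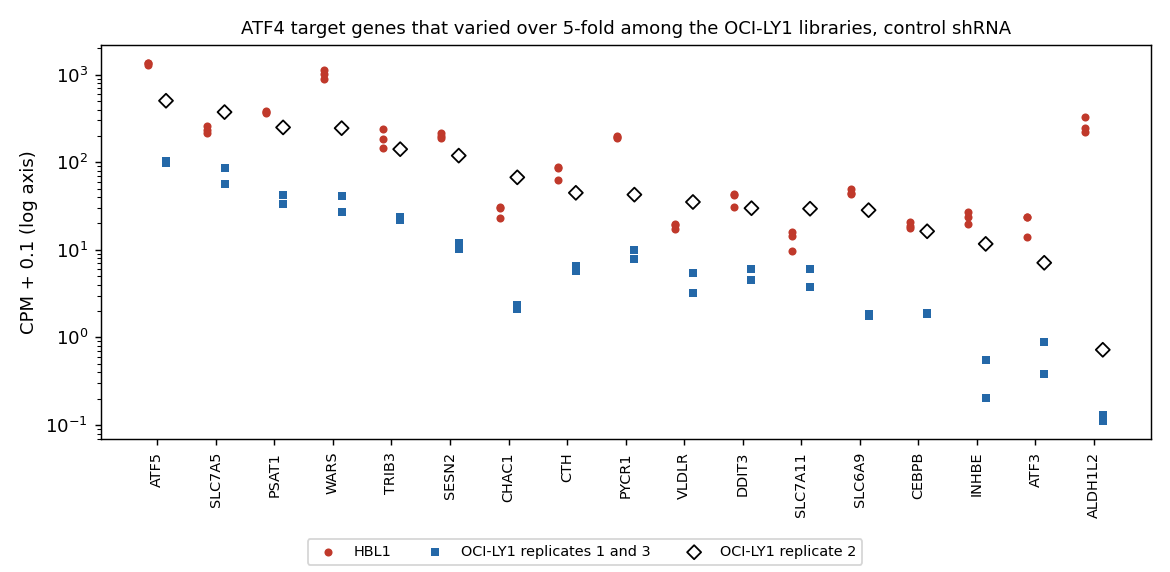
CPM + 0.1 on a log axis for the 17 ATF4 target genes that varied by more than 5-fold among the OCI-LY1 control libraries, with 3 HBL1 libraries (circles), OCI-LY1 replicates 1 and 3 (squares) and OCI-LY1 replicate 2 (diamonds), 1 point per library. The diamond is above the squares for each gene, and below all circles for 13 of them.

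Karpas422 control libraries are given as a description, with no test. In the study this line stood for the OXPHOS subtype of DLBCL, which has high expression of oxidative phosphorylation genes, and it was grown in the same medium as HBL1. For 11 of the 13 called GCB markers and 19 of the 21 called ABC markers, the mean level of Karpas422 was nearer to OCI-LY1 than to HBL1. Over all 6635 called genes this was so for 55.6%. The reverse held for the class II genes, with 14 of 15 called members nearer to HBL1, and for the interferon-stimulated genes, with 29 of 34. HLA-DRA was 273 to 287 CPM in Karpas422, and STAT5A was 109 to 144 CPM, both nearer to HBL1, whereas IRF4 was 0.00928 to 0.0375 CPM. RB1 was 104 to 126 CPM in Karpas422. Levels of interferon-stimulated genes were uneven among the Karpas422 libraries, for example 59.8, 22.8 and 3.73 CPM for IFI44L. The part of the medium in these values was not tested.

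The comparison was repeated in the libraries with the SIRT3 shRNAs, none of which had entered it. With shSIRT3-1, 5892 genes were called between HBL1 and OCI-LY1 (49.6% of those tested), and with shSIRT3-2, 6458 (54.6%). Of 6200 control calls that were tested with shSIRT3-1, 4622 were called in the same direction, which is 74.5% of the control calls and 80.4% of the shSIRT3-1 calls, and 16 were called in the opposite direction. With shSIRT3-2 the count was 5108 of 6247 (81.8% of the control calls and 81.0% of the shSIRT3-2 calls), with 28 opposite. Of the control calls with a fold change above 4 that were also tested there, 1828 of 1900 (96.2%) were called in the same direction with shSIRT3-1 and 1950 of 1973 (98.8%) with shSIRT3-2. The differences between the lines were called in the same direction with all 3 constructs for 4115 genes, and in the other direction with both SIRT3 shRNAs for SDC3, SNTB1 and SCN8A. The shSIRT3-1 comparison includes OCI-LY1 replicate 1, which held the HBL1-specific genes at a median of 0.787% of their HBL1 level, and HBL1 replicate 1, which held Karpas422-specific genes at 0.341%.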

How the data were processed

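RNA of HBL1 and OCI-LY1 control cells was compared in 6 of the 27 libraries. The authors made paired-end libraries from total RNA with random-oligo priming, aligned reads to hg19 with STAR and assigned them to RefSeq genes with Rsubread. The deposited values are named FPKM, but within a library short and long genes share the same smallest increment, as CPM do, and they were treated as CPM. The tests planned for normalized values were kept. Whole reads were recovered at 100.0% of values within a tolerance of 0.1 of a read, and reads on genes made up 41.9% to 45.1% of the scaling total used by the authors. Values were tested as log2(CPM + 0.1) in limma 3.58.1 with a variance trend (R 4.3.3), with Benjamini-Hochberg adjustment over all 12162 tested genes. edgeR 4.0.16 on the recovered reads called 6598 genes by the quasi-likelihood test and 6705 by the likelihood ratio test.

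The 23 gene lists were written from general knowledge, and members and lists were chosen with earlier results of these data known. Genes named are all cell-of-origin markers, up to 6 called members per list with the largest differences and up to 3 with the opposite sign, the 10 largest per direction without overlap, SIRT3, ATF4, PSAT1 and GLUD1, and ATF4 targets that varied over 5-fold among the OCI-LY1 libraries. Other genes were named after their values were seen. A few genes that the rule names are not reported here, and they stay in the counts. Intervals are exact binomial (95%) and cover counting error only. On simulated data with 3 libraries per line, 14.6% of 1.5-fold, 93.0% of 2-fold and 100.0% of 4-fold changes were recovered. Unchanged genes called there numbered 0, 11 and 16. The simulation gave all genes the same dispersion and changed only a small part of them. These shares therefore do not measure what could be detected in the real libraries, whose spread differed between genes. Gene positions are those of GENCODE on hg19. Promoters came from RefSeq (GRCh38.p14) and were matched by symbol, older symbols included, for 9753 tested genes (80.2%). For a gene with several promoter entries only the first listed was used. The alternatives were other pseudocounts, no filter, other scalings, a replicate block, no variance trend, all 9 control libraries, edgeR and leaving out each library.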

Additional observations from a re-analysis of the deposited data

Results flagged for a closer look

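For 3 genes the difference between the lines had 1 sign with the control shRNA and the other sign with both SIRT3 shRNAs, with no overlap between the lines under any of the 3 constructs. The difference in sign itself was not tested. SDC3, a cell surface proteoglycan, was 6.56, 7 and 9.36 CPM in HBL1 and 0.567 to 0.762 CPM in OCI-LY1 with the control shRNA, a log2 difference of 3.39, against -1.76 with shSIRT3-1 and -1.13 with shSIRT3-2. SNTB1, a syntrophin, was 17.2, 21 and 16.4 CPM in HBL1 and 1.99, 11.5 and 1.63 CPM in OCI-LY1 with the control shRNA, a log2 difference of 2.39, against -2.86 and -1.63. The sodium channel gene SCN8A was 1.52, 1.9 and 2 CPM in HBL1 and 1.18, 1.31 and 0.906 CPM in OCI-LY1 with the control shRNA, a log2 difference of 0.64, against -1.12 and -1.10. With the SIRT3 shRNAs, HBL1 libraries held 0.457 to 1.01 CPM of SDC3 and 0.198 to 0.8 CPM of SNTB1, and OCI-LY1 libraries 1.16 to 4.47 and 1.79 to 4.99 CPM. Groups held 3 libraries each, so no library was tested as an outlier within its group.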

How the results depend on the processing

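The number of genes called between the lines with the control shRNA, 6635, ranged from 6292 (pseudocount 1) to 9059 (no filter on low values, more genes tested) over the alternatives. Leaving out each library gave 6326 to 6670. Quantile normalization moved the median difference of all genes by -0.10 on the log2 scale and the share of calls higher in HBL1 from 54.1% to 47.1%. The replicate numbers were not treated as pairs in the main fit. Same-numbered libraries deviated together with correlations of 0.40, 0.04 and 0.30, and differently numbered libraries with -0.35 to 0.18. Whether the replicates shared a batch was not tested. A fit with a replicate block called 6736 genes. With shSIRT3-1 the counts were 5602 to 8003 (5640 with the replicate block), and with shSIRT3-2 6039 to 8956 (6460 with the replicate block). Of 2864 values for 179 named genes under the alternatives, 2828 kept their direction and call, 27 lost the call, 6 gained it and 3 reversed. The reversals were of SLC7A11, which was not called, at -0.008 and -0.005 under the edgeR quasi-likelihood and likelihood ratio tests against 0.57 with all libraries. Leaving out each library gave SLC7A11 values from -0.037 (without OCI-LY1 replicate 3) to 1.448 (without OCI-LY1 replicate 2, adjusted p = 0.0051). Calls were lost for BCL6, CD79B and the ATF4 targets CEBPB, DDIT3, INHBE, PSAT1, SESN2, SLC6A9 and TRIB3, and the cause was not tested. A 1.5-fold change lies at the call threshold itself, so its recovery in processing does not measure what 3 libraries per line can detect.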
